A study of Mus musculus with 18 samples.

Results

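The genes described here are 10 genes of MHC class I antigen presentation in NIH 3T3 cells, an established line of mouse fibroblasts. They were picked by gene symbol as H2-D1, H2-K1, H2-T23, B2m, Tap1, Tap2, Tapbp, Psmb8, Psmb9 and Nlrc5, and all 10 were found among the 22019 genes of the expression table. All 10 passed the filter on low values, which asked for a signal above the lowest value of the table (1) in at least 3 of 18 libraries and which 16021 genes passed. Of the 10 genes, 8 lie in the MHC region of chromosome 17, and 2 lie elsewhere, B2m on chromosome 2 and Nlrc5 on chromosome 8. The choice took account of the fact that chromosome 17 genes lay higher in SUN1L than in KDEL libraries, so values of SUN1L against KDEL cells are given for these genes as a description, and nothing is read from tests of them.

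Polyadenylated RNA was sequenced from 6 groups with 3 libraries each. All cells were stable retroviral NIH 3T3 Tet-On 3G lines selected with puromycin, given doxycycline (1 μg/ml) for 48 hr and grown on polyacrylamide gels coated with fibronectin. SUN1L cells expressed SS-HA-SUN1L-KDEL, the SUN1 lumenal domain behind a signal sequence and an HA tag and ahead of an ER retrieval sequence, which acts as a dominant negative for the LINC complex that links nucleus and cytoskeleton. KDEL cells expressed SS-GFP-KDEL as the control and, unlike SUN1L cells, had also been sorted for GFP. Each line was grown on soft (1 kPa) and on stiff (308 kPa) gels. KDEL cells on 308 kPa were also given the inhibitor Y27 at 25 μM, or blebbistatin, an inhibitor of myosin II, at 10 μM, for 48 hr. The line and its transgene were therefore changed together between SUN1L and KDEL cells and cannot be told apart in any such comparison.

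MHC class I molecules show peptides from inside the cell to cytotoxic T cells, and nearly every nucleated cell, fibroblasts included, makes them. Peptides are cut by the proteasome, in which interferon can replace constitutive subunits with the immunoproteasome subunits encoded by Psmb8 and Psmb9. The TAP1-TAP2 transporter pumps the peptides into the endoplasmic reticulum, tapasin (Tapbp) bridges the transporter to empty class I molecules, and the heavy chain reaches the surface only with β2-microglobulin (B2m) and a peptide. NLRC5 is a transactivator of this gene set that acts with RFX and CREB-family factors at class I promoters.

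The libraries are named by the serial numbers in their labels, in the order of replicates 1, 2 and 3, which are numbered here by serial number since the labels number none. These were libraries 4, 16 and 28 for KDEL and 3, 15 and 27 for SUN1L cells on 1 kPa, 8, 20 and 32 for KDEL and 7, 19 and 31 for SUN1L cells on 308 kPa, 12, 24 and 36 for Y27, and 10, 22 and 34 for blebbistatin. The estimated depth was 12670000 to 19460000 read pairs per library. The signal of Sun1 was 38450 to 82620 in the 6 SUN1L libraries and 2785 to 3799 in the 12 KDEL libraries. Library 34 carried conflicting labels. Its source name and the heading of its column in the table give an empty vector with Y27, another label gives blebbistatin, and the number of the column belongs to no library. It was counted with blebbistatin, and values are also given with it left out or counted with Y27 where they turn on it. In libraries 3, 7 and 8 the mean log2 signal of 18 genes of dividing cells was 8.58, 8.85 and 9.15, against 11.46 to 12.23 in the other 15 libraries, and their values are given apart where they bear on a gene. The summed signal of 10 fibroblast markers was 553200 to 896100 in the 18 libraries, and that of the leukocyte markers was 196 to 672.2. Of 9 leukocyte markers in the table, Cd3e was at the lowest value in every library, while Cd68 (58.67 to 304.2), Csf1r (12.97 to 276.5) and Lyz2 (21.42 to 127.2) were detected in every library. Of 7 markers of professional antigen-presenting cells, the MHC class II genes H2-Aa and H2-Ab1 were at the lowest value in every library, while H2-DMa (181.7 to 568.9), H2-DMb1 (221 to 337.5) and Cd74 (2.042 to 64.01) were detected in every library.

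The promoters of H2-K1, H2-D1, B2m and Tap1 are shown because the heavy chains, B2m and the transporter are often described as one co-regulated set, whereas their signals did not move as one set here. RefSeq promoters (GRCm38.p6) were matched for 8 of the 10 genes, all but Tap2 and Nlrc5. Each sequence ends 1 base before the start site and reads 5′ to 3′ on the gene's own strand. The stretch of H2-K1 is chr17:34000334-34000533 on the minus strand, that of H2-D1 is chr17:35262894-35263093 on the plus strand, and that of B2m is chr2:122147487-122147686 on the plus strand. The fourth is chr17:34187331-34187555 on the plus strand and fills the 225 bases between the divergent start sites of Tap1 and Psmb9. Capitals in H2-K1 and H2-D1 mark, in order, an NF-kB palindrome (GGGGA and TCCCC with 1 free base between them) and a CRE core (TGACG). Capitals in B2m mark a pair of GAAA half-sites with 2 free bases between them and a CRE core, and those in Tap1 mark a CCAAT box (CCAAT) and a CRE core. The CCAAT box is marked in the Tap1 stretch only, but on either strand it also lies, unmarked, in those of H2-K1, H2-D1 and B2m. The marked box is at −222 to −218 from the start site of Tap1 and at −8 to −4 from that of Psmb9.
H2-K1: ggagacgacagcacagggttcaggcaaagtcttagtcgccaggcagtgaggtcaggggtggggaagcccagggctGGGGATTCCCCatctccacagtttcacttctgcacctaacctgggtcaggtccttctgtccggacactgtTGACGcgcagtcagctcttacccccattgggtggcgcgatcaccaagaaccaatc
H2-D1: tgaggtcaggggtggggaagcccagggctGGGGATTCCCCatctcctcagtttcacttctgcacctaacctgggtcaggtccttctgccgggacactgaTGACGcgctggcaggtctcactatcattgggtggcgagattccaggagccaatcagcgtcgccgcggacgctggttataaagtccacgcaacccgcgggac
B2m: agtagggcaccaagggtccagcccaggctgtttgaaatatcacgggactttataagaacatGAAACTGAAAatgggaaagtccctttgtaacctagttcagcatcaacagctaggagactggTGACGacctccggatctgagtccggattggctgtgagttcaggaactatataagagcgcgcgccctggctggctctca
Tap1 and Psmb9: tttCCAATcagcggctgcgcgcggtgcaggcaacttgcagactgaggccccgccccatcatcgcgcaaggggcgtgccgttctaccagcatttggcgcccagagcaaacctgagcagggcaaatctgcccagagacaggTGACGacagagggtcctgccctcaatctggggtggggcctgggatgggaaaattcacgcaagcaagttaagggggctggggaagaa

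Counting back from the start site, the NF-kB palindrome lay at −125 to −115 in H2-K1 and at −171 to −161 in H2-D1. H2-K1 has 2 RefSeq start sites, and its stretch and the offset below are for that at 34000333. From the other, at 34000347, the palindrome lay at −111 to −101. Aligned without gaps at an offset of 46 bases, 169 of 204 bases (82.8%) of the 2 heavy chain promoters were identical. Among the 32851 RefSeq promoters of 250 upstream bases, searched on both strands, 0.0457% held the NF-kB palindrome, 2.98% the GAAA pair, 17.8% the CRE core and 33.8% the CCAAT box. The palindrome was found in H2-K1 and H2-D1 of the 8 genes matched, the GAAA pair in B2m and H2-T23, the CRE core in 5 of 8, and the CCAAT box in 7 of 8. The CCAAT box was added to the search after the sequences had been read. A match of letters is a description and no evidence of binding.

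The 10 genes covered a wide range of levels. Levels of different genes were compared per kb of exon (the union of annotated exons), since the deposited signal is not divided by gene length. B2m stood highest, with a median over the 18 libraries of 14332 signal units per kb (9163 to 17955), followed by H2-D1 at 3022 (2513 to 3959). Tapbp had 791 units per kb (552 to 991). Tap2 at 376 (186 to 561) and H2-K1 at 303 (154 to 447) were neighbours whose ranges overlapped, and Tap1 followed at 142 (100 to 250). Psmb9 at 17.7 (9.74 to 27.9) and H2-T23 at 14.2 (7.58 to 20.9) also overlapped, as did Nlrc5 at 1.7 (0.269 to 3.29) and Psmb8 at 1.36 (0.365 to 4.37) at the bottom of the order. H2-D1 and H2-K1 have similar exon lengths (2588 and 2608 bases), so their difference in level per kb was close to that in signal.

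Class I heavy chains are highly polymorphic, and the NIH 3T3 line comes from Swiss mice whereas the reference genome is C57BL/6. The share of reads lost to allelic differences was not analysed here and limits comparisons of level between H2-D1, H2-K1 and H2-T23, but not comparisons of one gene across libraries of the same alleles. Among stretches of 50 bases, the read length, 12.8% of those of H2-D1, 7.29% of those of H2-K1 and 15.7% of those of H2-T23 also occurred in transcripts of another gene, so that their reads could be split or lost. For B2m the share was 0.0%. In the deposited positions, which differ from the RefSeq start sites given above, the rows of Tap1 and Psmb9 overlap on opposite strands. They share 6.27% and 9.71% of their stretches with each other or with other genes, and the library kit did not mark strand.

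**Figure D1:**
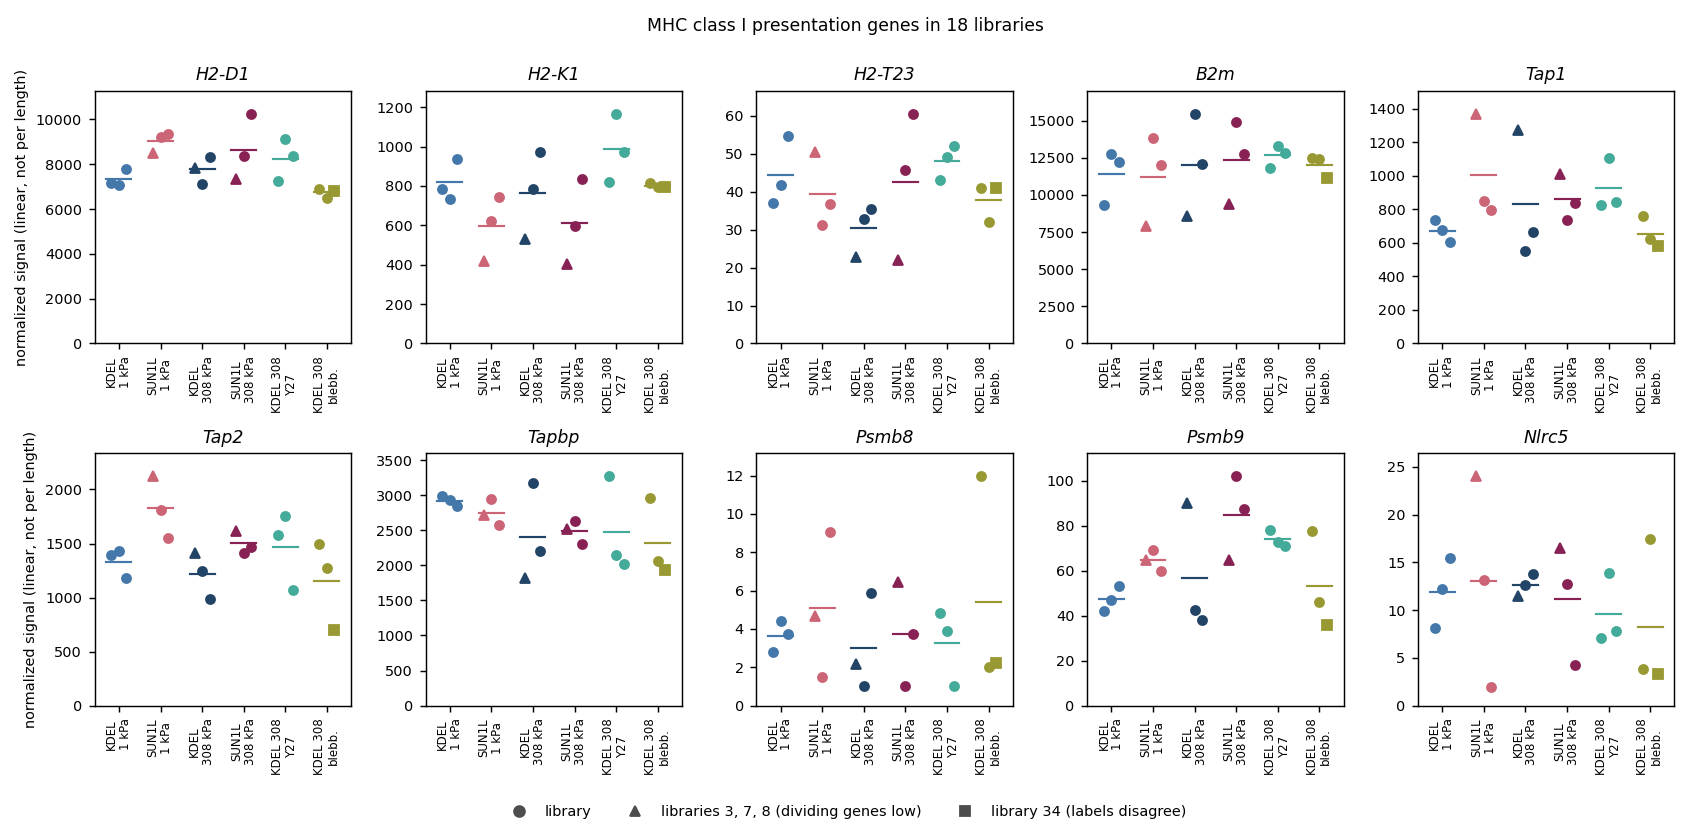
Signal of each of the 10 genes (TMM-normalized units) in each of the 18 libraries, by group. Horizontal bars are group means, triangles are libraries 3, 7 and 8, and the square is library 34. H2-D1 stayed between 6503 and 10240, whereas H2-K1 was lowest in the 3 triangles (401.9 to 531.7), as were 12.9% of all tested genes.

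H2-D1 (ENSMUSG00000073411, chr17 from 35262730 to 35267499, plus strand) encodes a classical heavy chain. It was the steadiest of the 10 genes, with a highest value only 1.58-fold above the lowest. On 1 kPa its signal was 7142, 7067 and 7802 in KDEL and 8502, 9238 and 9368 in SUN1L libraries. On 308 kPa it was 7842, 7135 and 8330 in KDEL and 7351, 8368 and 10240 in SUN1L libraries. The SUN1L libraries thus all lay above the KDEL libraries on the soft gel, and the groups overlapped on the stiff gel. The inhibitors gave 7243, 9142 and 8363 (Y27) and 6906, 6503 and 6827 (blebbistatin), and these 2 groups did not overlap.

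H2-K1 (ENSMUSG00000061232, chr17 from 33996017 to 34000333, minus strand), the other classical heavy chain, varied more, by 2.9-fold. On 1 kPa its signal was 783.7, 731.2 and 938.8 in KDEL and 416.7, 621.8 and 745.3 in SUN1L libraries. On 308 kPa it was 531.7, 786.2 and 972.6 in KDEL and 401.9, 599 and 833 in SUN1L libraries. SUN1L means were below KDEL means on both gels, with overlapping groups. Y27 libraries had 820.7, 1165 and 974.7 and blebbistatin libraries 816.6, 794.6 and 795.4, so that every Y27 value was above every blebbistatin value, by as little as 820.7 against 816.6.

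H2-T23 (ENSMUSG00000067212, chr17 from 36029773 to 36032855, minus strand) encodes Qa-1, a nonclassical heavy chain recognised by natural killer cell receptors. Its signal was 36.98, 41.79 and 54.59 in KDEL libraries on 1 kPa and 22.68, 32.9 and 35.44 in KDEL libraries on 308 kPa. In SUN1L libraries it was 50.39, 31.11 and 36.7 on 1 kPa and 21.89, 45.68 and 60.48 on 308 kPa, the widest spread of any group for this gene. With Y27 it was 43.06, 49.1 and 52.1, and with blebbistatin 40.96, 31.95 and 40.92. In KDEL cells the soft gel and Y27 were therefore both above the untreated stiff gel without overlap.

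B2m (ENSMUSG00000060802, chr2 from 122147686 to 122153083, plus strand) encodes the light chain shared by all class I molecules. Its group means lay between 11230 ± 3030 (SD, n = 3, SUN1L on 1 kPa) and 12650 ± 771 (Y27), a smaller difference than the spread within the untreated groups. Its lowest values were 7880, 8548 and 9329 in libraries 3, 8 and 4, and its highest was 15440 in library 20.

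Tap1 (ENSMUSG00000037321, chr17 from 34187553 to 34197225, plus strand) and Tap2 (ENSMUSG00000024339, chr17 from 34203527 to 34216321, plus strand) encode the subunits of the peptide transporter. Tap1 signals on 1 kPa were 738.1, 678.9 and 604.7 in KDEL and 1369, 847.5 and 793.9 in SUN1L libraries. On 308 kPa they were 1277, 550 and 666.6 in KDEL and 1013, 735.4 and 840.8 in SUN1L libraries. Library 8, at 1277, stood apart from the other KDEL libraries on the stiff gel, and library 3, at 1369, was the highest of all 18.

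Tap2 followed Tap1 in part. On 1 kPa its signals were 1390, 1429 and 1180 in KDEL and 2122, 1807 and 1552 in SUN1L libraries, and the groups did not overlap. On 308 kPa they were 1414, 1244 and 982.1 in KDEL and 1619, 1413 and 1472 in SUN1L libraries, which overlapped by 1 unit (1414 against 1413). The inhibitor groups were wide, with 1580, 1756 and 1066 for Y27 and 1494, 1270 and 701.6 for blebbistatin, the last being library 34 and the lowest of all 18 libraries.

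Tapbp (ENSMUSG00000024308, chr17 from 33915899 to 33929288, plus strand), tapasin, had group means between 2318 ± 558 (blebbistatin) and 2921 ± 70.4 (KDEL on 1 kPa; SD, n = 3 each). Its lowest value, 1819, was in library 8 and its highest, 3269, in library 12. The group means on 1 kPa (2921 and 2749 in KDEL and SUN1L cells) were above the 4 means on 308 kPa (2318 to 2484).

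Psmb9 (ENSMUSG00000096727, chr17 from 34181988 to 34187764, minus strand) encodes the immunoproteasome subunit β1i. Its signals on 1 kPa were 42.22, 46.74 and 53.32 in KDEL and 64.77, 69.28 and 60.01 in SUN1L libraries, without overlap. On 308 kPa they were 89.87, 42.34 and 38.09 in KDEL and 64.51, 101.9 and 87.42 in SUN1L libraries, where library 8 alone (89.87) lay among the SUN1L values. Y27 gave 77.94, 72.79 and 70.89 and blebbistatin 77.48, 46.12 and 35.65.

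Psmb8 (ENSMUSG00000024338, chr17 from 34197721 to 34201454, plus strand), which encodes β5i, had signals from 1 to 11.96, with 3 libraries at the lowest value of the table. Nlrc5 (ENSMUSG00000074151, chr8 from 94472763 to 94527272, plus strand) had 1.967 to 24.01, both ends being SUN1L libraries on 1 kPa (27 and 3). Differences in these genes rest on few reads and are understated by the log2(value + 1) scale. The constitutive counterparts of the immunoproteasome subunits, singled out after their values were seen, had median signals of 4977 (Psmb6) and 3200 (Psmb5). Per kb of exon their order was reversed, at 2659 (Psmb6) and 3471 (Psmb5) signal units.

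The comparison of SUN1L with KDEL cells asked how disruption of the LINC complex bears on gene expression at a given rigidity. Of the 10 genes, 0 were called on either gel, where a call needed a Benjamini-Hochberg adjusted p under 0.05 in limma and at least a 2-fold difference. Over all tested genes 0.0874% were called on 1 kPa and 0.0624% on 308 kPa. At an unadjusted p under 0.05 in limma the counts were 2 of 10 on 1 kPa, beside 4.54% of all tested genes, 16.6% of tested chromosome 17 genes and 24.5% of the neighbours described below, and 0 of 10 on 308 kPa, beside 2.53% of all tested genes. Because the choice of the genes used these comparisons, nothing is read from the counts. The summed signal of the 7 markers of antigen-presenting cells was 563.4 to 911.4 in SUN1L and 514.5 to 636.9 in KDEL libraries on 1 kPa. On 308 kPa it was 628.2 to 767.7 and 559.6 to 811.9. That of the leukocyte markers was 225.4 to 434.7 in SUN1L and 277.2 to 323.3 in KDEL libraries on 1 kPa. On 308 kPa it was 258.4 to 672.2 and 196 to 339.7. The SUN1L and KDEL ranges overlapped in each case. The part of these markers in the values of the presentation genes was not tested.

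**Figure D2:**
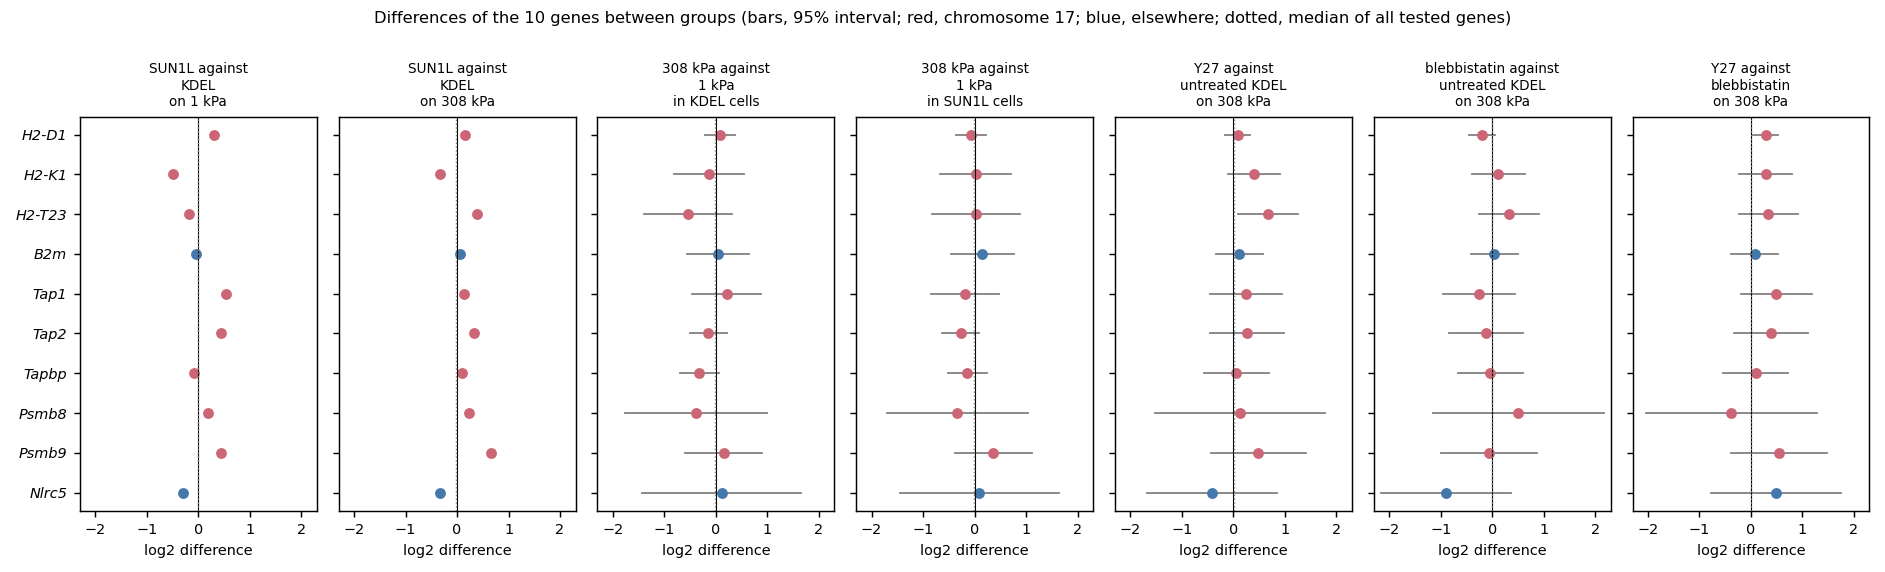
Log2 differences on the log2(signal + 1) scale for the 10 genes in each comparison, with chromosome 17 genes in red, B2m and Nlrc5 in blue and the median of all tested genes as a dotted line. The SUN1L panels show the differences alone, and the other panels add 95% intervals from limma. H2-K1 is the lowest red point in both SUN1L panels (−0.49 and −0.34).

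The means of Tap1, Tap2, Psmb9 and H2-D1 were higher in SUN1L than in KDEL cells on both gels. On 1 kPa the log2 differences were 0.53 for Tap1, 0.45 for Tap2, 0.44 for Psmb9 and 0.30 for H2-D1, and these were the 4 of 10 genes whose SUN1L values all exceeded the KDEL values (6.65% of all tested genes and 29.8% of tested chromosome 17 genes did so), while 0 of 10 were lower without overlap (beside 7.86%). On 308 kPa the same genes had 0.14, 0.32, 0.65 and 0.15, and 0 of 10 were higher or lower without overlap (beside 1.95% and 2.33%). Tap1 turned on single libraries, with 0.288 on 1 kPa without library 3, and on 308 kPa 0.498 without library 8 and −0.109 without library 20. The other differences on 1 kPa and 308 kPa were 0.18 and 0.23 for Psmb8, −0.09 and 0.09 for Tapbp, and −0.18 and 0.39 for H2-T23.

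The genes outside chromosome 17 gave −0.05 and 0.05 for B2m and −0.30 and −0.33 for Nlrc5. The median over the 8 chromosome 17 genes was 0.241 on 1 kPa and 0.189 on 308 kPa. These medians stood close to those of the 805 tested genes of chromosome 17, which were 0.217 and 0.185, against −0.009 and −0.029 over all tested genes. Of all 10 genes 5 were above 0 on 1 kPa (beside 48.1%) and 8 on 308 kPa (beside 42.9%).

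The height of chromosome 17 was not uniform along it. Between 0 and 20 Mb the medians per 10 Mb were −0.014 and −0.054 on 1 kPa, and they rose to 0.269 between 20 and 30 Mb and 0.324 between 30 and 40 Mb, where the MHC genes lie. On 308 kPa the same bins had −0.061, −0.011, 0.213 and 0.214. The 94 tested neighbours, which lie between the outermost of the 8 genes and are neither among them nor H2 genes, had medians of 0.349 and 0.227, with 82 and 79 of them above 0. Differences of the 8 genes were therefore set against these neighbours.

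**Figure D3:**
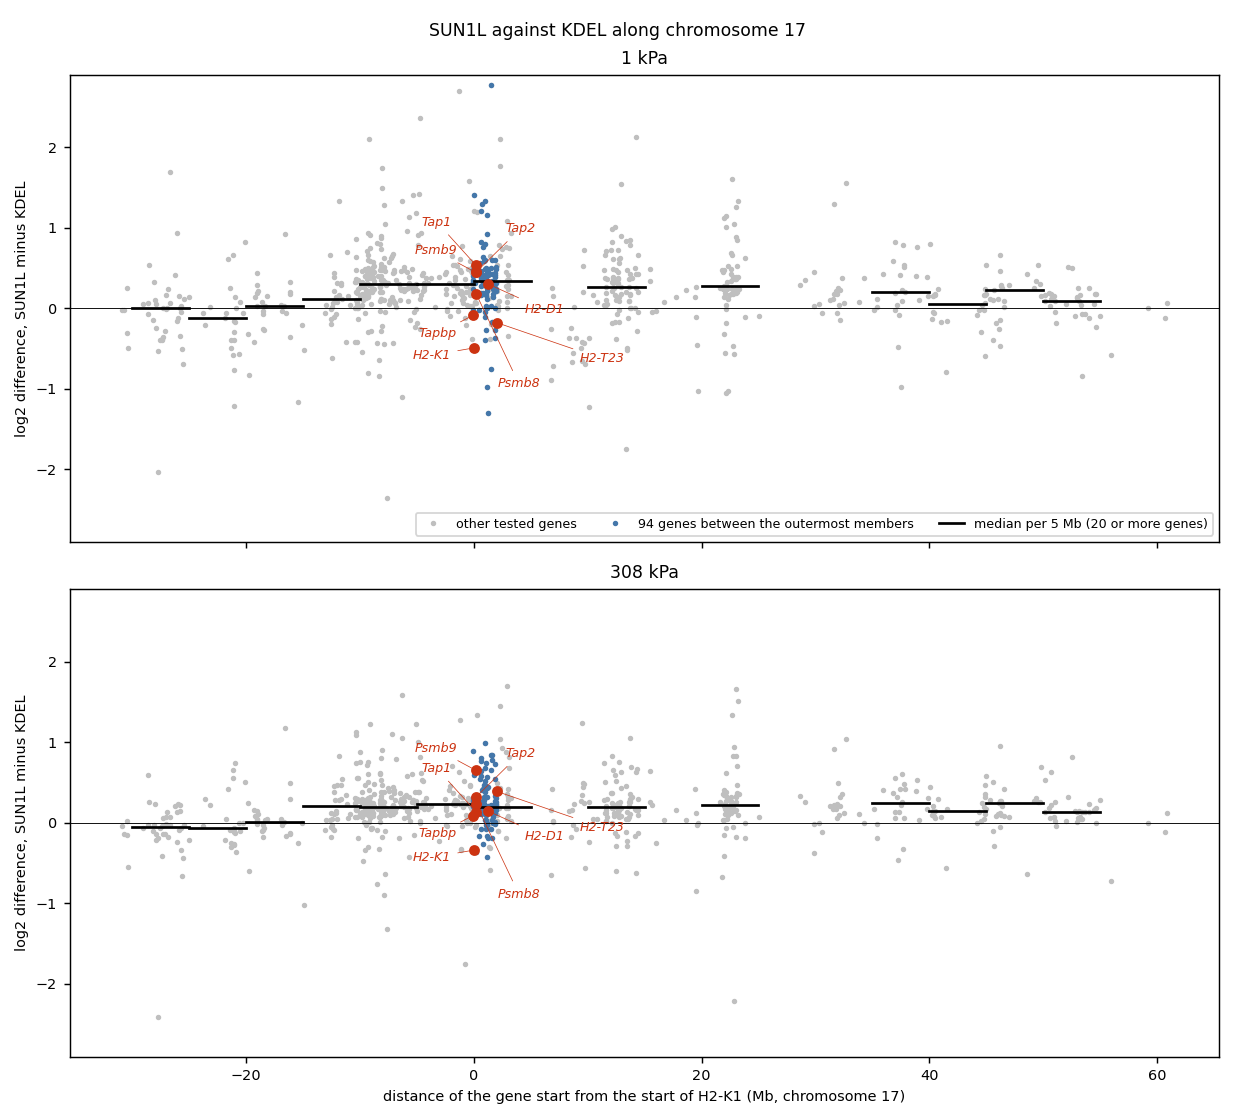
Log2 difference of SUN1L against KDEL cells along chromosome 17, by distance in Mb from the start of H2-K1, on 1 kPa and on 308 kPa. Red points are the 8 presentation genes, blue points the 94 neighbours, grey points other genes, and black bars medians per 5 Mb with at least 20 genes. H2-K1 lies below nearly all of its neighbours in both panels, whereas the neighbours' medians are 0.349 and 0.227.

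H2-K1 was lower in SUN1L cells where most of its neighbours were higher. Its log2 difference, −0.49 on 1 kPa and −0.34 on 308 kPa, was lower than in all but 3 and all but 2 of the 94 neighbours. Relative to the chromosome 17 median it was −0.709 and −0.524. When libraries were compared by run of serial numbers (3 to 12, 15 to 24 and 27 to 36, each with 1 library per group), the difference was −0.91, −0.234 and −0.333 on 1 kPa and −0.403, −0.392 and −0.223 on 308 kPa, below 0 in every run. The share of all tested genes with the same sign in every run was not computed, so nothing is read from this. The SUN1L and KDEL values of H2-K1 overlapped on both gels. Without libraries 3, 7 and 8 the difference of H2-K1 was −0.256 and −0.307, with 3 and 8 of the 94 neighbours lower. Other genes of the 8 were also below 0 in this setting, as given below. The size of the H2-K1 difference turned on single libraries: it was −0.256 on 1 kPa without library 3, and on 308 kPa −0.069 without library 7, −0.143 without library 32, −0.578 without library 8 and −0.593 without library 31.

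The other classical heavy chain, H2-D1, lay within the range of its neighbours. It had 34 of 94 neighbours below it on 1 kPa and 31 on 308 kPa, and −0.04 to 0.083 relative to the chromosome 17 median. Tap2 had 64 and 63 neighbours below it, and Tap1 76 and 30. Psmb9 had 64 and 83, with differences by run on 308 kPa of −0.472, 1.248 and 1.178, the first being the pair with library 8. Without libraries 3, 7 and 8 the difference of Psmb9 on 308 kPa was 1.213, above 93 of the 94 neighbours. Tapbp had 9 and 21 neighbours below it, and H2-T23 had 7 and 68. Without libraries 3, 7 and 8, H2-T23 had −0.367 on 1 kPa, lower than H2-K1, with 2 neighbours below it. On 308 kPa it had 0.608, with 84 below it. In the same setting Tapbp had −0.082 and −0.101, with 5 and 11 neighbours below it. Psmb8, with few reads, had 0.123 and −0.268, with 15 and 9 below it.

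The contrast between the heavy chains is plainest in the ratio of H2-D1 to H2-K1 within a library, which cancels library-wide scaling. It was 9.11, 9.66 and 8.31 in KDEL libraries on 1 kPa and 20.4, 14.9 and 12.6 in SUN1L libraries on 1 kPa. On 308 kPa it was 14.7, 9.08 and 8.56 in KDEL and 18.3, 14 and 12.3 in SUN1L libraries. Y27 libraries had 8.83, 7.84 and 8.58 and blebbistatin libraries 8.46, 8.18 and 8.58.

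All 6 SUN1L libraries, at 12.3 to 20.4 (median 14.4), thus lay above 11 of the 12 KDEL libraries, at 7.84 to 9.66. The exception was library 8, at 14.7. Without libraries 3 and 7 the SUN1L libraries had 12.3 to 14.9. The ratio was chosen after the values had been seen and was not tested.

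**Figure D4:**
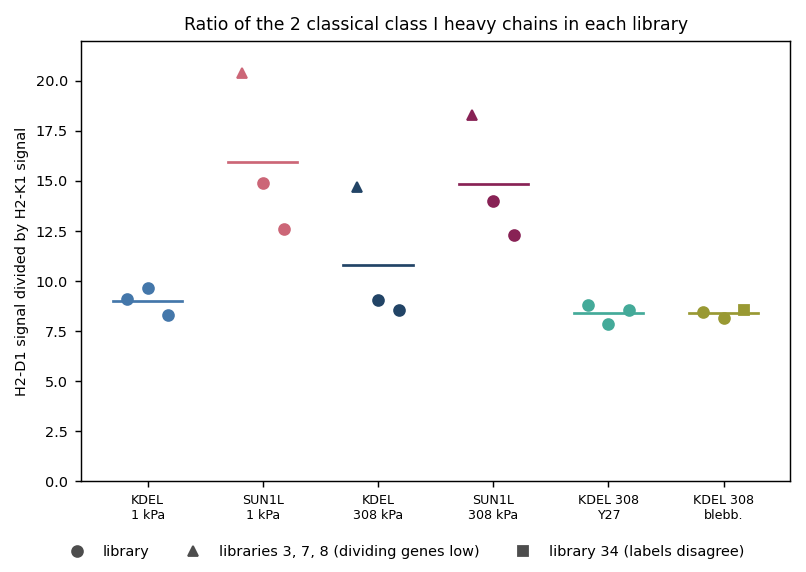
Ratio of H2-D1 signal to H2-K1 signal in each library, by group, with group means as horizontal bars, libraries 3, 7 and 8 as triangles and library 34 as a square. SUN1L libraries lie at 12.3 to 20.4 and KDEL libraries at 7.84 to 9.66, apart from library 8 at 14.7.

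The 3 libraries with low signal of dividing-cell genes were also set against the other 15. In this split 1 of 10 genes, H2-K1, was lower without overlap (beside 12.9% of all tested genes) and 0 of 10 were higher (beside 8.8%). These counts are near the shares of all tested genes, so nothing is read from them. H2-K1 was 401.9 to 531.7 in libraries 3, 7 and 8 and 599 to 1165 in the other 15. B2m, which overlapped, had 7880 to 9374 against 9329 to 15440, with ranks 1, 4 and 2 of 18 from the bottom. Tap1, which also overlapped, had 1013 to 1369 against 550 to 1105. H2-D1 (7351 to 8502) stayed within the range of the other libraries (6503 to 10240). Libraries 3 and 7 are SUN1L and library 8 is KDEL, and all 3 belong to the run of libraries 3 to 12. In bulk RNA, fewer cells of a kind and less RNA per cell cannot be told apart, and the part of cell division in the levels of these genes was not tested.

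**Figure D5:**
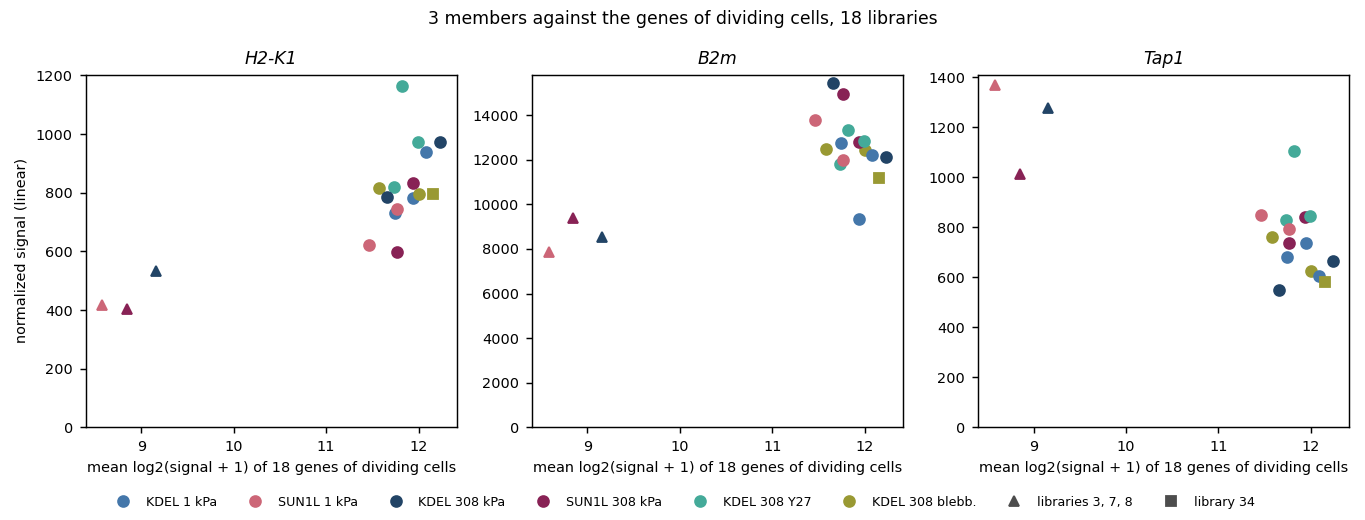
Signal of H2-K1, B2m and Tap1 against the mean log2 signal of 18 dividing-cell genes in each of the 18 libraries. Triangles are libraries 3, 7 and 8 (scores 8.58 to 9.15) and the square is library 34. H2-K1 is lower and Tap1 mostly higher in the triangles than in the other 15 libraries (scores 11.46 to 12.23).

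The genes did not move together over all 18 libraries. Over the 18 libraries, Pearson's r of log2 levels was 0.669 for Tap1 and Tap2, 0.611 for Tap1 and Psmb9, and 0.582 for H2-K1 and B2m, but −0.61 for B2m and Tap1 and −0.497 for H2-K1 and Tap1. Libraries 3, 7 and 8 had ranks 18, 15 and 17 of 18 from the bottom for Tap1. Their ranks were 1, 4 and 2 for B2m and 2, 1 and 3 for H2-K1. No r was computed without these 3 libraries, so how far the negative values rest on them is not known. The rows of Tap1 and Psmb9 overlap, so reads of 1 gene could have been counted for the other. The part of this in their r was not tested. All r values are descriptions over libraries that share lines and runs.

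The comparison of 308 with 1 kPa asked whether substrate rigidity bears on these genes in each line. In KDEL cells 0 of 10 genes were called, beside 0% of all tested genes, and 0 of 10 had an unadjusted p under 0.05 in limma, beside 1.37%. The largest difference was in H2-T23, where the stiff gel had lower values without overlap (2.65% of all tested genes did so, and 2.13% were higher, with 0 of 10 here), with a log2 difference of −0.54 (SE 0.39, 95% interval −1.404 to 0.32, limma Benjamini-Hochberg adjusted p = 1). By run the difference was −0.682, −0.336 and −0.609, and without library 8 it was −0.352. Tapbp had −0.32 (SE 0.171, interval −0.702 to 0.054, limma adjusted p = 1).

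H2-D1 differed by 0.08 on the log2 scale (interval −0.211 to 0.373), H2-K1 by −0.13 (−0.817 to 0.548) and B2m by 0.04 (−0.561 to 0.651), and without library 8 H2-K1 turned to 0.104. A change of H2-D1 beyond 1.3-fold was outside its interval, while the others were known less closely. The median over the 10 genes was −0.045, beside −0.011 over all tested genes, and 5 of 10 were above 0 (beside 47.5%).

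In SUN1L cells 0 of 10 genes were called, beside 0%, and 0 of 10 had an unadjusted p under 0.05, beside 1.93%. The group ranges of all 10 genes overlapped, where 1.69% of all tested genes were higher and 3.08% lower without overlap. Log2 differences ran from −0.34 (Psmb8) to 0.36 (Psmb9). Tap2 had −0.27 (SE 0.161, interval −0.629 to 0.082, limma adjusted p = 1) and H2-K1 0.02. The median was −0.028, beside −0.011 over all tested genes, with 5 of 10 above 0 (beside 47.3%).

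The interaction of SUN1L and rigidity, the difference between the SUN1L effects on the stiff and the soft gel, was called in 0 of 10 genes at a Bonferroni-corrected p under 0.05 in limma, beside 0% of all tested genes. An unadjusted p under 0.05 was found for 0 of 10, beside 0.905%. The estimates ran from −0.395 (Tap1) to 0.568 (H2-T23, SE 0.552, interval −0.651 to 1.787), with 6 of 10 above 0 (beside 49.3%), and the lowest unadjusted p was 0.326 in limma. The SUN1L differences described above were therefore not shown to differ between the gels for any of the 10 genes.

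The inhibitor comparisons asked how each inhibitor bears on these genes in KDEL cells on the stiff gel. Both share the untreated libraries 8, 20 and 32. With Y27, 0 of 10 genes were called, beside 0% of all tested genes, while 9 of 10 differences were above 0 (beside 50.9%) with a median of 0.186, beside 0.006 over all tested genes and 0.078 over the 94 neighbours. H2-T23 had a log2 difference of 0.67 (1.59-fold, SE 0.251, interval 0.088 to 1.247, limma unadjusted p = 0.0291, Benjamini-Hochberg adjusted p = 0.783). It was 1 of 10 genes with an unadjusted p under 0.05 (beside 6.05%) and 1 of 10 without overlap on the higher side (beside 4.95%; 0 of 10 were lower, beside 3.62%), and its differences by run were 0.896, 0.563 and 0.543.

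H2-K1 had 0.40 with Y27 (SE 0.222, interval −0.115 to 0.912, limma adjusted p = 0.834), and without library 8 it had 0.16. The other differences were 0.48 for Psmb9, 0.26 for Tap2, 0.24 for Tap1, 0.11 for B2m (interval −0.344 to 0.569) and 0.08 for H2-D1, all on the log2 scale. Nlrc5 was the 1 gene below 0, at −0.41. Without library 8, 7 of 10 were above 0 with a median of 0.126, B2m turned to −0.113 and Tap1 had 0.6, and without library 20 Tap1 had −0.007. With library 34 counted with Y27, 8 of 10 were above 0 with a median of 0.066. All 18 genes of dividing cells were higher with Y27 (median 0.859) and with blebbistatin (median 0.905) than without inhibitor. Their mean log2 signal was 9.15, 11.66 and 12.23 in untreated libraries 8, 20 and 32 and 11.735 to 11.994 with Y27. Apart from library 8, the untreated libraries thus lay on either side of the Y27 range. Of the general loading chaperones and ER factors, 10 of 10 were also above 0 with Y27 (median 0.162). Of 10 fibroblast markers, 9 were above 0, with a median of 0.638. Of 4 endothelial markers, 3 were above 0 and 1 below, with a median of 0.319 (−0.005 to 2.852). Among them Tek, named after its values were seen, had 779.2 to 3928 with Y27 against 124.7 to 682.3 without inhibitor. The part of these shifts in the values of the presentation genes was not tested.

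With blebbistatin, 0 of 10 genes were called, beside 0%, and 0 of 10 had an unadjusted p under 0.05, beside 4.21%. H2-D1 was lower without overlap (3.55% of all tested genes were, and 3.66% were higher, with 0 of 10 here), by −0.20 on the log2 scale (SE 0.107, interval −0.448 to 0.045, limma adjusted p = 0.89), and without library 34 by −0.21. The differences by run were −0.183, −0.134 and −0.287. H2-K1 had 0.11, B2m 0.04, H2-T23 0.33, Tap1 −0.25 and Psmb8 0.51.

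Some blebbistatin values turned on library 34. The log2 difference of Tap2 was −0.12 with it and 0.20 without it, that of Psmb9 was −0.06 and 0.18, and that of Tapbp was −0.04 and 0.08. Nlrc5 had −0.90 with library 34 (SE 0.547, interval −2.169 to 0.364, limma adjusted p = 0.89) and −0.52 without it. The median over the 10 genes was −0.048, beside 0 over all tested genes, with 4 of 10 above 0 (beside 49.8%). Without library 34 it was 0.106, with 7 of 10 above 0.

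Set directly against each other on the same gel and for the same time, but at 25 and 10 μM, Y27 and blebbistatin differed in 0 of 10 genes by the call, beside 0%. Of the 10 genes, 9 were higher with Y27 (beside 50.5%), with a median of 0.311 beside 0.003 over all tested genes and 0.116 over the 94 neighbours, of which 72 were higher. H2-D1, H2-K1, H2-T23 and Tap1, that is 4 of 10, were higher without overlap (beside 5.39%), and 0 of 10 lower (beside 4.24%). H2-D1 had the narrowest interval, with a log2 difference of 0.28 (1.22-fold, SE 0.107, interval 0.038 to 0.531, limma unadjusted p = 0.0289, Benjamini-Hochberg adjusted p = 1). It was the 1 of 10 genes with an unadjusted p under 0.05 (beside 2.83%). In 7 of 10 genes (those 4 with Tap2, Tapbp and Psmb9) Y27 was higher than blebbistatin in each of the 3 runs, and the same 7 were in the 2 runs without library 34. In the run of libraries 3 to 12 these 7 differences were small, from 0.007 (H2-K1) to 0.144 (Tapbp). The share of all tested genes with the same sign in every run was not computed, so nothing is read from this count.

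These counts changed with the placing of library 34. Without it 8 of 10 genes were higher with Y27 (median 0.193), and H2-D1, H2-K1, H2-T23 and Tap1 were still those without overlap, beside 11.4% of all tested genes. With library 34 counted with Y27, 5 of 10 were higher (median 0.01) and 0 of 10 were higher without overlap, beside 7.51%. Without library 34 the differences of Tap2 and Psmb9 between the inhibitors were 0.059 and 0.299 in place of 0.38 and 0.54, that of Nlrc5 was 0.108 in place of 0.49, and that of Tapbp was −0.03 in place of 0.09. Tap1 had 0.50, H2-T23 0.34, H2-K1 0.28 and B2m 0.07 with all libraries. None of these differences passed the correction for the 16021 genes tested.

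The rest of the class I pathway was described by lists chosen by function. In every comparison 0 genes of these lists were called. Of 10 genes of peptide loading and ER folding (calreticulin, calnexin, Pdia3, Erap1 and others), SUN1L cells had 1 higher and 9 lower on 1 kPa (median −0.14) and 3 higher and 7 lower on 308 kPa (median −0.02). Of 10 genes of the proteasome core and its activators, 2 were higher and 8 lower on 1 kPa (median −0.149), and 3 and 7 on 308 kPa (median −0.055). Of 9 tested cytosolic peptidases, which trim peptides, 8 were lower on each gel (medians −0.17 and −0.088). Nearly all genes of these lists lie on chromosomes other than 17. For these lists and those below, the share of all tested genes that was higher in SUN1L cells was 48.1% on 1 kPa and 42.9% on 308 kPa.

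The proteasome subunit Psmb10, the third that interferon induces and the one of the inducible subunits not on chromosome 17, was singled out after its values were seen and had a median signal of 560.4 (366.2 to 721.1). Its log2 differences were −0.13 on 1 kPa and 0.01 on 308 kPa in SUN1L cells. With Y27 it had 0.58 (limma unadjusted p = 0.0059, adjusted p = 0.707).

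Other class I heavy chain and class I-like genes, most of them on chromosome 17, had 15 of 18 tested genes higher in SUN1L cells on 1 kPa (median 0.235) and 12 of 18 on 308 kPa (median 0.125). Of all tested chromosome 17 genes, 76.4% and 79.4% were higher. With Y27 4 of 18 were higher (median −0.215), and with blebbistatin also 4 of 18 (median −0.249). The 2 with the highest levels lie elsewhere: Mr1, which presents vitamin metabolites to T cells, had −0.26 and −0.22 in SUN1L cells and −0.18 with Y27, and Fcgrt, the neonatal Fc receptor, had 0.20, 0.07 and 0.33.

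Of 26 tested regulators of class I transcription, 15 were higher in SUN1L cells on 1 kPa (median 0.041) and 11 on 308 kPa (median −0.011). The 2 with the highest levels were Jak1, a kinase of interferon receptors (−0.18 and −0.12), and Atf1, a CREB-family factor (0 and 0.26). An unadjusted p under 0.05 was found for 2 of 26 on 1 kPa, Irf7 at 1.19 (limma unadjusted p = 0.0106) and Relb at 0.36 (limma unadjusted p = 0.0454), and neither passed the correction. Of 26 tested interferon-stimulated genes, 11 were higher on 1 kPa (median −0.065) and 9 on 308 kPa (median −0.058). With Y27 17 of these 26 were higher (median 0.083). In SUN1L cells the single genes of this list ran from −1.106 to 0.787 on 1 kPa.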

How the data were processed

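Polyadenylated RNA from 18 libraries (6 groups of 3) had been sequenced as 50 bp pairs. Per the study's methods the authors aligned reads with TopHat to mm9, removed reads of low base quality, alignment score or mapping quality and duplicates, and deposited 1 table of normalized signal (AvadisNGS, TMM, linear, lowest value 1, not per length). Positions in the table are those of GRCm38. The submitters' processing notes name FastQC, SAMtools and TopHat2 2.0. Read counts were not analysed here, since only 45.9 to 50.6% of values between 1 and 20 were whole multiples of 1 read (tolerance 0.02 reads).

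log2(value + 1) was fitted with limma 3.58.1 (R 4.3.3; trend, 1 mean per group, two-sided) over 16021 genes, in 12 libraries for SUN1L and rigidity and in 9 for inhibitors, and tested on simulated data. Genes were called from 2-fold upwards if p, adjusted by Benjamini-Hochberg, was under 0.05, or at a Bonferroni-corrected p under 0.05 for the interaction. Intervals are 95%. An exact permutation test of 3 against 3 libraries cannot go below 0.1. The methods state 3 biological replicates. All 10 genes were named by symbol, whatever their values. The members and lists were chosen with earlier results of these data known.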

Additional observations from a re-analysis of the deposited data

How the results depend on the processing

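Under the alternatives run (pseudocounts of 0.1 and 8, no filter or a mean of at least 10, quantile normalization, no trend in limma, 1 fit over all 18 libraries, a replicate block, library 34 left out or counted with Y27, no libraries 3 to 12, no libraries 3, 7 and 8, and each library left out), 0 of the 10 genes were called in the comparisons each was run for. With a mean of at least 10, 9 of the 10 genes were tested, and settings that concern only some libraries were run only for comparisons with those libraries. Of 838 single-gene values under alternatives other than 1 library left out, 59 changed sign, and of 870 with 1 library left out, 74 did. The spread between replicates of the median log2 level of the 8 chromosome 17 genes was 0.074 in the 12 libraries and 0.176 in the 9. Some shifts of their median log2 difference with 1 library left out, given below, went beyond it. Under the other alternatives this median moved beyond the spread in these cases. Relative to the other genes of chromosome 17 it was 0.024 (SUN1L on 1 kPa) and 0.004 (SUN1L on 308 kPa), in place of 0.241 and 0.189. Without libraries 3 to 12 it was 0.156 for SUN1L on 1 kPa, 0.32 for SUN1L on 308 kPa, −0.034 for rigidity in SUN1L cells and −0.004 for the interaction. Without libraries 3, 7 and 8, a choice made after seeing the data like that of chromosome 17 as the reference, the last 3 were 0.32, −0.034 and 0.016. With library 34 left out it was 0.151 for blebbistatin, and with library 34 counted with Y27 it was 0.071 for Y27, 0.151 for blebbistatin and 0.123 for Y27 against blebbistatin. The cause of these shifts was not tested.

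With 1 library left out, the median ran from 0.114 (without SUN1L replicate 3 on 1 kPa) to 0.339 for SUN1L on 1 kPa, 0.138 to 0.266 for SUN1L on 308 kPa, −0.189 to −0.077 for rigidity in KDEL cells, −0.219 to −0.029 for rigidity in SUN1L cells, −0.075 to 0.17 for the interaction, 0.127 to 0.437 for Y27, −0.221 to 0.151 for blebbistatin (highest without library 34) and 0.223 to 0.392 for Y27 against blebbistatin.

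The labels number no replicates, and runs of serial numbers were used as a replicate block as a hint from the data only. Of 45 pairs of libraries of the same run, 41 had deviations from the group means that correlated above 0.1 (lowest 0.066), and all 18 libraries matched best with their own run. With the block 0 of 10 genes were called in each comparison, and 17 and 12 of all tested genes were called for SUN1L on 1 and 308 kPa, against 14 and 10 without it.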

Other observations

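The 5 genes whose log2 levels followed the mean of the 10 presentation genes most closely over the 18 libraries, among 8010 genes with a mean signal above the median, were Rnf215 (Pearson's r 0.836), Nucb1 (0.815), Itfg3 (0.79), Hmg20b (0.763) and Lmf1 (0.761). Of these, Itfg3 and Lmf1 lie on chromosome 17. The libraries share lines, runs and depth, and the values are a description.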
